A study of Mus musculus with 10 samples.

Results

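Translation initiation and elongation factors are the proteins that load ribosomes onto mRNA and move them along it. Their genes were taken from the RNA table by name: every row starting with Eif or Eef and a digit, apart from the Eif2ak kinases. The rule gave 63 of 23309 named rows. By the nearest start site as the authors assigned it, it also gave 35 of 4579 KLF3 peaks and 30 of 3800 KLF1 peaks. No measured value entered this rule, but the group was chosen with earlier results of these data known. The 4 Eif2c rows among them carry an older name of the Argonaute genes, whose products act in small RNA silencing and are not translation factors. They go against the group's name but are kept in the counts, since the rule names them, and the main counts are also given over the other 59 rows.

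The study used mouse erythroid lines. J2E-KLF3-ER cells, of clones A, C and E, are J2E cells with a transgene that fuses KLF3 to an estrogen receptor domain which 4-hydroxytamoxifen activates, and all 3 of their RNA libraries were treated with the drug at 200 nM. J2E, the parent, is an immortalised line from fetal liver without the transgene; 2 of its 3 RNA libraries had tamoxifen and the third had ethanol, the vehicle. Newly made RNA was labelled with 4-thiouridine (4sU) at 500 uM for 30 minutes, captured and sequenced. The length of the tamoxifen treatment is not listed for the RNA libraries in the labels used here. KLF3 binding was mapped in clone C with an estrogen receptor antibody, and KLF1 binding in K1-ER cells (clones A and C), erythroblasts without Klf1 that carry a KLF1-ER transgene; both were fixed after 3 hours of tamoxifen, each against its own input. The promoter that drives the transgenes is not given in the sources used here.

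Initiation begins when eIF2 brings the initiator tRNA to the small ribosomal subunit together with eIF1, eIF1A, eIF3 and eIF5, while eIF4F, made of the cap-binding eIF4E, the scaffold eIF4G and the helicase eIF4A, prepares the mRNA. Elongation then uses eEF1A to deliver tRNAs and eEF2 to move the ribosome. Immature red cells depend on this machinery to make globin, and the 4E-BP proteins and the eEF2 kinase are its brakes. KLF1 is a transcriptional activator of red cell genes, and KLF3 a repressor of the same family that binds related CACCC-type sequences.

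The RNA table holds 1 pooled FPKM value per group (fragments per kilobase of transcript, scaled to library size), so no spread or SE can be set beside a level, and depth per library is unknown. A gene is called here when the authors' q-value, their p-value adjusted over 9619 tested genes, is below 0.05. Whether the J2E libraries came from separate cultures is not given, so these p-values may measure technical spread. All J2E-KLF3-ER libraries had tamoxifen, so clone differences and activation of the fusion cannot be told apart. Klf3 stood at 180 FPKM in J2E-KLF3-ER and 7.46 FPKM in J2E in the authors' deposited table. All 9 rows of the erythroid marker list were above 0 in both lines, with a sum of 370 FPKM in J2E-KLF3-ER and 532 FPKM in J2E. The row that joins Hba-a1 and Hba-a2 was near 0 in J2E, at 0.0208 FPKM, against 4.07 FPKM in J2E-KLF3-ER. Klf1, Epor and Slc4a1 of that list were called lower. Only the joined row and Alas2 were higher in value in J2E-KLF3-ER, without a call. Of the 11 markers of other cell types, 5 were below 1 FPKM in both lines, namely Alb, Col1a1, Col1a2, Cpa3 and Mcpt8, the last at 0 in both; the sum of all 11, 198 FPKM in J2E-KLF3-ER and 189 FPKM in J2E, came mostly from Pf4 and Itga2b, which mark megakaryocytes. The part of these differences in the results was not tested.

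In J2E-KLF3-ER cells 1 translation factor gene fell and 1 rose, and both carry KLF3 peaks at their promoters. A KLF3 peak within 1 kb of a start site was assigned to 47.4% of all tested members and to 29.1% of all tested genes. Whether the peaks bear on the 2 changes was not tested. Eif4ebp1, whose product 4E-BP1 holds eIF4E away from eIF4G until mTOR phosphorylates it, fell to 22.9 FPKM in J2E-KLF3-ER, against 53.8 FPKM in J2E, in the authors' deposited table. The gene lies on mm9 at chr8:28370798-28386128, and its log2 fold change was -1.23, a 2.35-fold lower value (authors' q = 0.00408, the smallest in their table and shared by 118 genes). Eef2, the translocase that moves the ribosome along the mRNA, was at 188 FPKM in J2E-KLF3-ER and 134 FPKM in J2E in the authors' deposited table. It lies at chr10:80639375-80645254, and its log2 fold change was 0.49, or 1.404-fold (authors' q = 0.0322). Called genes thus made up 2 of the 57 tested members (3.51%), while 2.72% of all tested genes were called. In the single directions, 0.821% of all tested genes rose and 1.9% fell. A share this near the background is no result about the group as a whole. Of the other 6 rows, 5 were not tested by the authors and 1 had too little data.

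**Figure D1:**
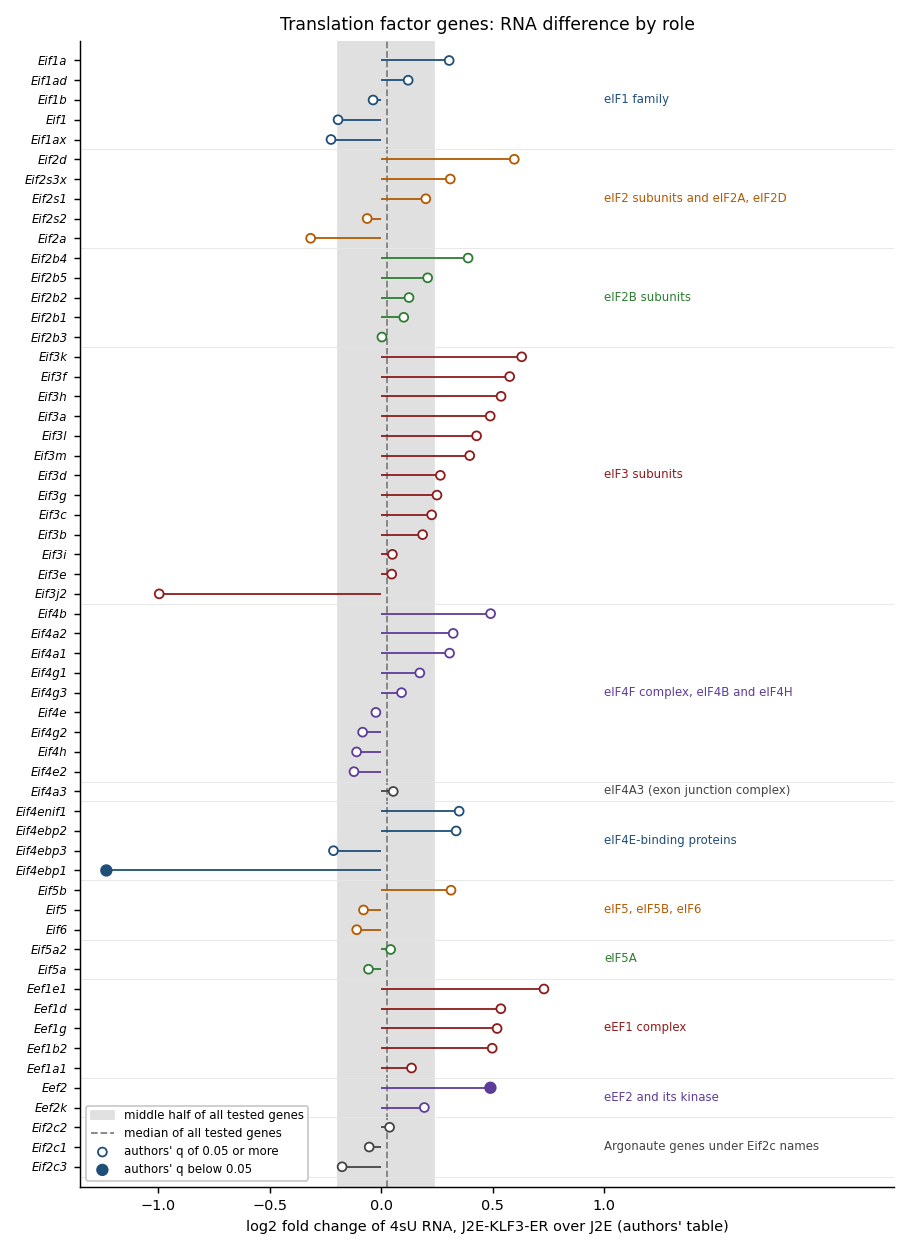
Each circle is the authors' log2 fold change (J2E-KLF3-ER over J2E) of 1 of the 57 tested genes, sorted by role; filled circles have an authors' q below 0.05, the grey band is the interquartile range and the dashed line the median of all 9619 tested genes. Eif4ebp1 (-1.23) and Eef2 (0.49) are the filled circles, 12 of 13 eIF3 rows lie above 0, and all 7 tested Eef genes do.

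The 7 tested Eef genes, among them the kinase gene Eef2k and the misnamed Eef1e1, had log2 fold changes above 0 in the authors' deposited table, with a median of 0.50 and a range of 0.14 to 0.73, whereas the median of all tested genes was 0.03. Eef1a1, which carries aminoacyl-tRNA to the ribosome, had the highest level of any member, 1358 FPKM in J2E-KLF3-ER and 1236 FPKM in J2E, in the authors' deposited table, and its log2 fold change of 0.14 was not called (q = 0.736). This gene has many near-identical pseudogenes, so its level is uncertain.

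The other eEF1 genes were further from 0 without being called. Eef1g, a structural subunit of the exchange complex that recharges eEF1A with GTP, had 75.3 FPKM in J2E-KLF3-ER and 52.6 FPKM in J2E in the authors' deposited table (log2 fold change 0.52, q = 0.0946). Eef1b2, an exchange factor subunit, had 41.4 FPKM in J2E-KLF3-ER and 29.4 FPKM in J2E (log2 fold change 0.50, q = 0.118, authors' deposited table). Eef1d, the other exchange subunit, had 16.7 FPKM in J2E-KLF3-ER and 11.5 FPKM in J2E (log2 fold change 0.54, q = 0.211, authors' deposited table). The 3 subunits of the exchange complex therefore had nearly equal fold changes, from 1.41 to 1.45. Eef1e1, which despite its name encodes a protein of the multi-tRNA synthetase complex, had the largest log2 fold change of any tested member, 0.73, with 35.7 FPKM in J2E-KLF3-ER and 21.5 FPKM in J2E in the authors' deposited table (q = 0.0625). Eef2k, the kinase that inactivates eEF2, had 11.5 FPKM in J2E-KLF3-ER and 10.0 FPKM in J2E in the authors' deposited table (log2 fold change 0.19, q = 0.667). The row of Eef1a2, the isoform of muscle and neurons, was not tested and is listed at 0 in J2E-KLF3-ER and at 0.0670 FPKM in J2E.

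Genes of eIF3, the largest initiation complex, which holds the small subunit and its mRNA together, also leaned to J2E-KLF3-ER without a call. Of 13 tested rows, 12 were above 0 (92.3%, against 53.4% of all tested genes), with a median log2 fold change of 0.26, per the authors' deposited table. Eif3a, the scaffold subunit, lay just outside the threshold: it had 133 FPKM in J2E-KLF3-ER and 94.6 FPKM in J2E, a log2 fold change of 0.49, per the authors' deposited table (q = 0.0513). Eif3f had 40.3 FPKM in J2E-KLF3-ER and 27.0 FPKM in J2E in the authors' deposited table (0.58 on the log2 scale, q = 0.0957). Eif3h, which like Eif3f encodes a subunit with an MPN domain, had 39.1 FPKM in J2E-KLF3-ER and 26.9 FPKM in J2E in the authors' deposited table (0.54, q = 0.156).

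The small subunit gene Eif3k had 20.2 FPKM in J2E-KLF3-ER and 13.1 FPKM in J2E, and Eif3l, whose product is its partner in the complex, had 58.7 FPKM in J2E-KLF3-ER and 43.7 FPKM in J2E, in the authors' deposited table. Their log2 fold changes were 0.63 and 0.43. The core subunit genes Eif3b, Eif3g and Eif3i, which form a module on the scaffold, were nearer to 0, at 0.19, 0.25 and 0.05 on the log2 scale of the authors' deposited table. Eif3c (0.23), Eif3d (0.26), Eif3e (0.05) and Eif3m (0.40) encode further subunits. Subunit genes of the same complex thus spanned 0.05 to 0.63, leaving out Eif3j2. That row was at 11.2 FPKM in J2E-KLF3-ER and 22.3 FPKM in J2E, a log2 fold change of -0.995, per the authors' deposited table (q = 0.575). Eif3j1 and Eif3j2 are near-identical copies, and the row that joins them, with 46.8 FPKM in J2E-KLF3-ER and 47.8 FPKM in J2E, had too little data for the authors' test, so the value for Eif3j2 is uncertain.

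For eIF2, the carrier of the initiator tRNA, the subunit genes did not share a direction. Eif2s1, the subunit that stress kinases phosphorylate, had 40.0 FPKM in J2E-KLF3-ER and 34.8 FPKM in J2E in the authors' deposited table (log2 fold change 0.20). Eif2s2 had 86.2 FPKM in J2E-KLF3-ER and 90.1 FPKM in J2E in the authors' deposited table (-0.06). Eif2s3x, the X-linked gene of the GTP-binding subunit, had 92.9 FPKM in J2E-KLF3-ER and 74.95 FPKM in J2E in the authors' deposited table (0.31, q = 0.319), and its Y-linked copy Eif2s3y, at most 0.0853 FPKM, was not tested. These copies are alike in sequence, so the split of reads between them is uncertain. All 5 genes of eIF2B, which reloads eIF2 with GTP, were above 0, from 0.00 for Eif2b3 to 0.39 for Eif2b4 on the log2 scale of the authors' deposited table. None was called.

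The genes of eIF2D and eIF2A, which can bring the initiator tRNA without eIF2, lay near opposite ends of the range. Eif2d was at 6.72 FPKM in J2E-KLF3-ER and 4.44 FPKM in J2E in the authors' deposited table (log2 fold change 0.60, q = 0.291), the lowest level of any tested member. Eif2a was at 47.7 FPKM in J2E-KLF3-ER and 59.4 FPKM in J2E in the authors' deposited table (-0.32, q = 0.493), and its locus overlaps Serp1. The start codon scanning factor genes lay on either side of 0: Eif1 at -0.19 and Eif1ax at -0.23, against Eif1a at 0.30, on the log2 scale of the authors' deposited table. Eif1b (-0.04) and Eif1ad (0.12) were nearer to 0.

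Among the genes of eIF4F and its helpers, the helicase genes were higher in value and the cap-binding gene was near 0, with no call. Eif4a1, the main helicase gene, had 359 FPKM in J2E-KLF3-ER and 291 FPKM in J2E in the authors' deposited table (log2 fold change 0.31, q = 0.292). Its paralogue Eif4a2 had 155 FPKM in J2E-KLF3-ER and 124 FPKM in J2E in the authors' deposited table (0.32, q = 0.308). Eif4b, which stimulates the helicase, was just outside the threshold with 89.5 FPKM in J2E-KLF3-ER and 63.7 FPKM in J2E in the authors' deposited table (0.49, q = 0.0565), whereas Eif4h, a related stimulator, was at -0.11.

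Eif4e, the target of 4E-BP1, had 69.6 FPKM in J2E-KLF3-ER and 70.7 FPKM in J2E in the authors' deposited table (log2 fold change -0.02, q = 0.966). The FPKM of Eif4ebp1 was therefore below that of Eif4e in both lines, by a wider margin in J2E-KLF3-ER. The scaffold genes Eif4g1, Eif4g2 and Eif4g3 had log2 fold changes of 0.17, -0.08 and 0.09, per the authors' deposited table, and Eif4e2, a cap-binding repressor, had -0.12. Both other 4E-BP genes went uncalled: Eif4ebp2 was at 19.9 FPKM in J2E-KLF3-ER and 15.8 FPKM in J2E (log2 fold change 0.34), and Eif4ebp3 at 9.67 FPKM in J2E-KLF3-ER and 11.2 FPKM in J2E (-0.21), in the authors' deposited table. Eif4enif1, whose product ferries eIF4E into the nucleus, was at 0.35 on the log2 scale (q = 0.267, authors' deposited table). Eif4e3 and Eif4e1b, at most 0.599 and 1.77 FPKM, were not tested.

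Among the late initiation genes Eif5b had the value furthest from 0, and none was called. Eif5, which makes eIF2 hydrolyse GTP at the start codon, and Eif6, which keeps the large subunit apart, had log2 fold changes of -0.08 and -0.11, per the authors' deposited table, and the subunit-joining GTPase gene Eif5b had 0.31 (q = 0.563). Eif5a, the hypusine-bearing factor that helps ribosomes through proline runs, had 232 FPKM in J2E-KLF3-ER and 242 FPKM in J2E in the authors' deposited table (-0.06), the third highest level of the members in both lines. Its paralogue Eif5a2 was at 8.16 FPKM in J2E-KLF3-ER and 7.93 FPKM in J2E. Eif4a3, a helicase of the exon junction complex and no initiation factor, was at 0.05. The Argonaute rows Eif2c1, Eif2c2 and Eif2c3 had log2 fold changes of -0.05, 0.04 and -0.18, per the authors' deposited table, and Eif2c4 was not tested.

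**Figure D2:**
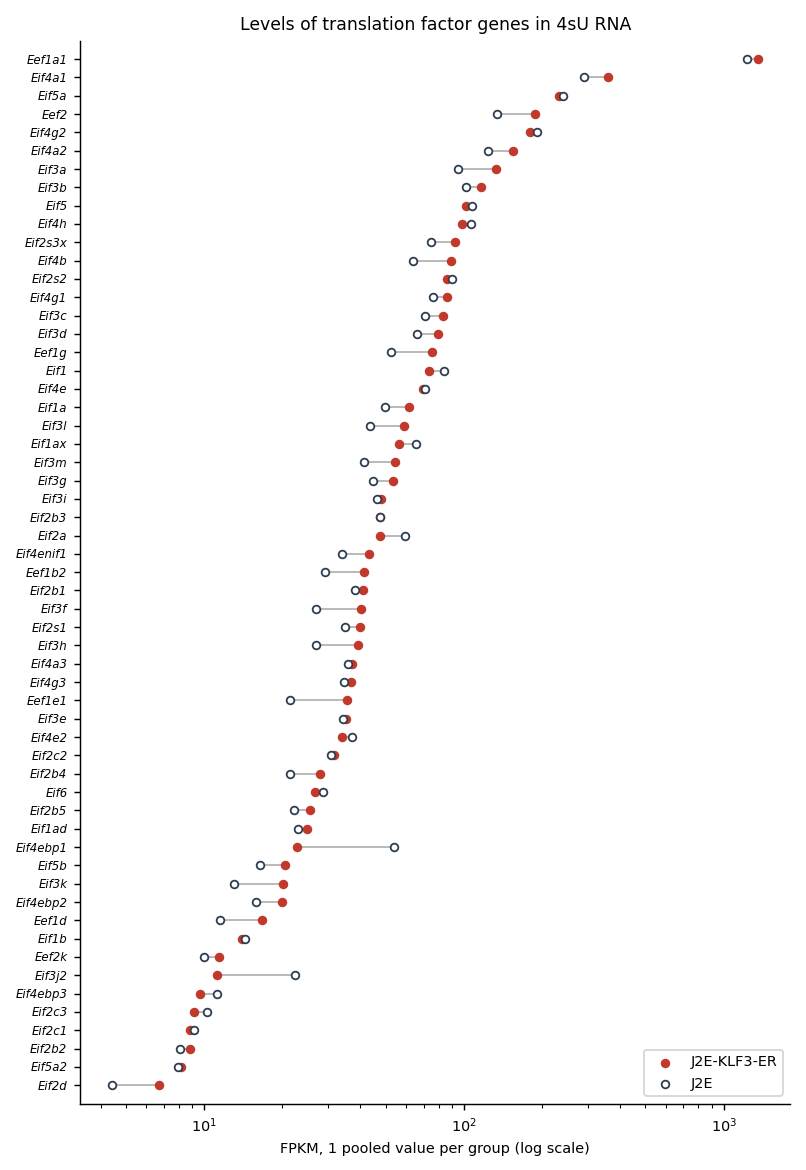
FPKM of the 57 tested genes on a log axis, with filled circles for J2E-KLF3-ER and open circles for J2E (1 pooled value per group, no error available). Levels run from 1358 FPKM for Eef1a1 to 6.72 FPKM for Eif2d in J2E-KLF3-ER, and Eif4ebp1 has the widest gap.

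Taking all 57 tested members, 40 had log2 fold changes above 0 (70.2%), against 53.4% of all tested genes, and the median was 0.17, against 0.03 over all tested genes. Without the Argonaute rows, 39 of 54 were above 0 (72.2%), with a median of 0.19. At the authors' unadjusted p below 0.05, a threshold chosen after the values were seen, 16 members were higher in J2E-KLF3-ER (28.1%) and 1 was lower (1.75%). Over all tested genes 7.93% were higher and 7.47% lower at that threshold. The 16 were Eef1b2, Eef1d, Eef1e1, Eef1g, Eef2, Eif2d, Eif2s3x, Eif3a, Eif3f, Eif3h, Eif3k, Eif3l, Eif4a1, Eif4a2, Eif4b and Eif4enif1. At an authors' q below 0.10 the calls numbered 7, or 12.3% of the tested members, against 4.56% of all tested genes, with Eif3a, Eif4b, Eef1e1, Eef1g and Eif3f added to Eef2 and Eif4ebp1. Below 0.01 it was 1, Eif4ebp1, against 1.51% of all tested genes.

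Fold changes in the table also varied by chromosome, and the members' places bear on these counts. Median log2 fold changes of all tested genes lay above those of the other chromosomes on chromosomes 1 and 10 to 19, a grouping made from these data (0.11, against -0.03 on the others). These chromosomes held 30 of the 57 tested members, and 13 of those 30 were higher at an unadjusted p below 0.05 (43.3%), against 11.8% of all tested genes there. On the other chromosomes 3 of 27 members were higher (11.1%), against 4.31% of all tested genes there. The members' median was 0.31 on chromosomes 1 and 10 to 19 and 0.04 on the others. Centred on the median of its own chromosome, the members' median was 0.12, and 39 of 57 lay above it. Eef2, on chromosome 10, kept a centred log2 fold change of 0.47, and Eif4ebp1, on chromosome 8, one of -1.24. Eef1e1, on chromosome 13, had a centred value of 0.51, below those of Eif3k (0.63) and Eif3f (0.58). The 7 tested Eef genes had a centred median of 0.39, and all 7 lay above their chromosome medians. For the 13 eIF3 rows the centred median was 0.29, and 11 lay above. What lies behind the chromosome pattern was not tested.

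**Figure D3:**
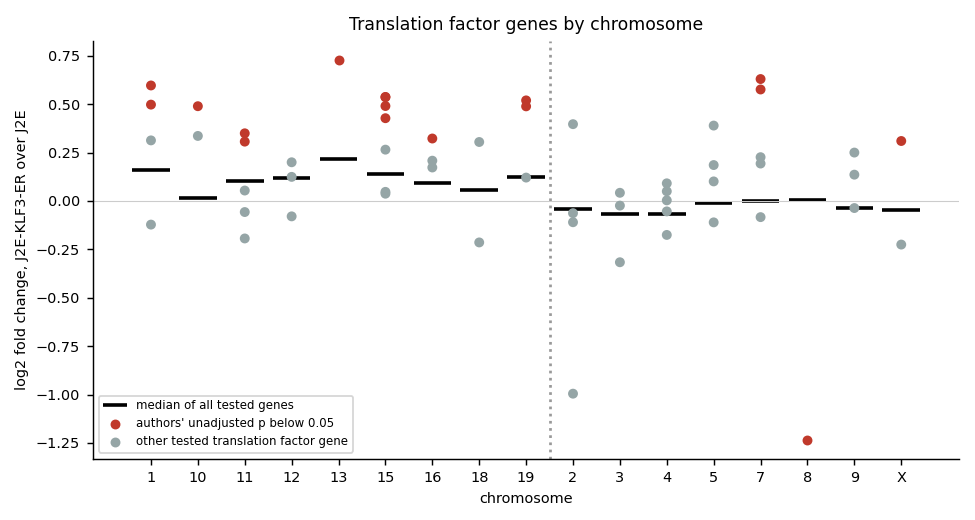
Authors' log2 fold change (J2E-KLF3-ER over J2E) of each tested translation factor gene by chromosome; black bars are the medians of all tested genes, red points have an authors' unadjusted p below 0.05, and the dotted line parts chromosomes 1 and 10 to 19 from the rest. Left of the line lie 13 of the 16 red points above 0.

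Genes that act beside these factors gave 1 call. Of 44 genes in a list of other translation genes, 43 had a row under that symbol, 42 were tested, 1 rose and none fell (at an unadjusted p below 0.05, 9 were higher and 0 lower). That is 2.38% called, near the 2.72% of all tested genes, and 21.4% higher at the unadjusted threshold, against 7.93%. The gene that rose was Gspt2, a paralogue of the release factor GTPase gene Gspt1, with 3.34 FPKM in J2E-KLF3-ER and 0.811 FPKM in J2E in the authors' deposited table (log2 fold change 2.04, q = 0.0356). Gspt1 itself had 29.0 FPKM in J2E-KLF3-ER and 24.4 FPKM in J2E in the authors' deposited table (0.25, q = 0.535). The next in size was Pelo, a ribosome rescue factor gene, at 0.60 on the log2 scale (q = 0.129, authors' deposited table). The median of the 42 was 0.12, lower than the 0.17 of the members and above the 0.03 of all tested genes.

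Binding by KLF3 was frequent here. Of the 57 tested members, 28 had an assigned KLF3 peak (49.1%), against 32.4% of all tested genes, while no untested row had one. A KLF1 peak was assigned to 17 (29.8%, against 19.1%), and peaks of both to 10 (17.5%, against 13.1%). With summits within 1 kb of a start site, the counts were 27 for KLF3 (47.4%, against 29.1%), 10 for KLF1 (17.5%, against 10.8%) and 8 for both (14.0%, against 8.84%). Without the Argonaute rows, 26 of 54 had a KLF3 peak at any distance (48.1%), 15 a KLF1 peak (27.8%) and 9 both (16.7%). The members have high RNA levels, with a median of 41.4 FPKM in J2E-KLF3-ER against 12.6 FPKM over all tested genes. Among tested genes at 10 FPKM or more in both lines, a level chosen after seeing the data, 35% had a KLF3 peak, 20% a KLF1 peak and 14.4% both; of the 51 members at that level, 25 had a KLF3 peak (49.0%), 16 a KLF1 peak (31.4%) and 9 both (17.6%). Each list was called on pooled material, so no replicate measures the error of a peak. Factor, antibody and cell line all differ between the lists, and no test of these shares was made.

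**Figure D4:**
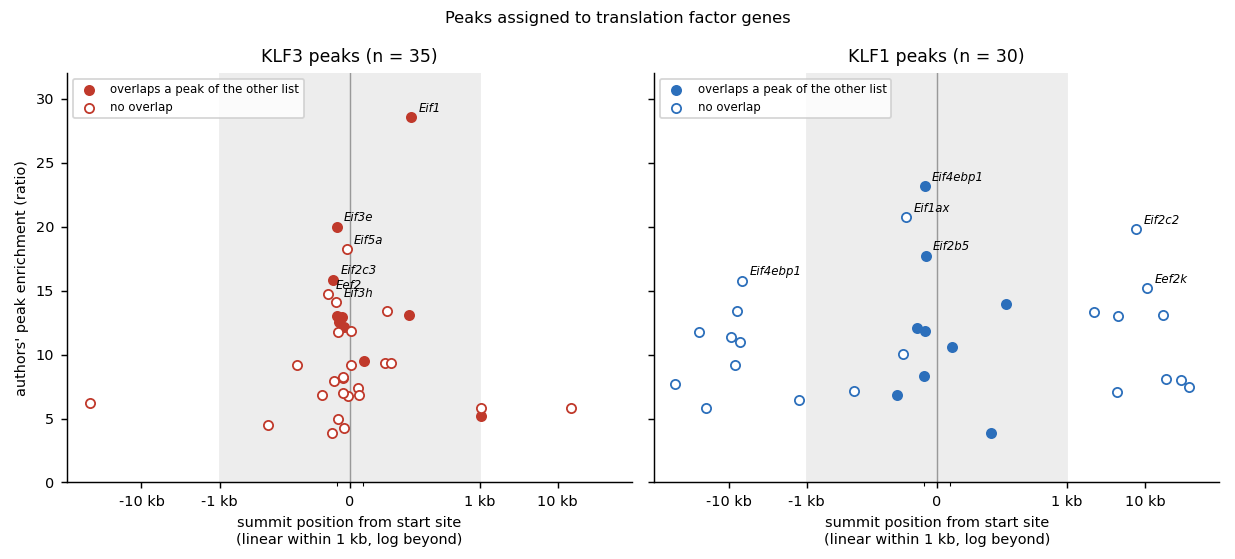
Each point is a deposited peak assigned to a translation factor gene, placed by the summit's position from the start site (negative is upstream; linear within 1 kb, shaded, and log beyond) and by the authors' enrichment ratio; filled points overlap a peak of the other factor by at least 1 bp. KLF3 summits crowd at the start site (31 of 35 within 1 kb), KLF1 summits less so (12 of 30).

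KLF3 peaks of these genes sat at promoters. Of 35 peaks, 31 had their summit within 1 kb of the start site (88.6%, against 81.2% of the whole list), with a median distance of 102 bp, and 21 of the 31 lay upstream of it. Enrichment, a ratio given by the authors per peak, had a median of 9.18 and a range of 3.88 to 28.6, against a median of 7.94 over the list. The highest was at Eif1, on mm9 at chr11:100180990-100182005, with a summit in the intron (enrichment 28.6, rank 37) and another summit at the promoter (12.6). Eif3e followed at chr15:43114236-43114534 (20.01, rank 214), then Eif5a at chr11:69734771-69735317 with summits of 18.2 and 13.4, and Eif2c3 at 15.9. The peak of Eef2 lay 166 bp upstream of the start site, at chr10:80639071-80639362, with an enrichment of 14.7. The lowest was that of Eif4b (3.88, rank 4546). Genes of the same complex differed: of the eIF3 genes, Eif3e, Eif3h (14.1) and Eif3m (11.7) had a KLF3 peak and no other member of that complex did. Eef1b2 (9.37), Eef1e1 (4.94) and Eef1g (4.28) had promoter peaks, whereas the peak assigned to Eef1a1 was 45913 bp upstream.

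KLF1 peaks of these genes lay away from promoters more often than those of KLF3, a difference that was not tested. Of 30 peaks, 12 lay within 1 kb (40.0%, against 41.0% of the list), 11 were annotated as intron (36.7%, against 37.3%) and 9 as distal (30.0%, against 23.4%), and the median distance was 4466 bp, against 2738 bp over the list. The highest was at the promoter of Eif4ebp1 (23.1, rank 377), followed by that of Eif1ax (20.7) and an intron of Eif2c2 (19.8). Eef2k had 5 KLF1 peaks, 3 of them in introns, 1 at the promoter and 1 upstream, the largest number of any member, and Eif2c2 had 3, all in introns. In the KLF1 list the authors also mark whether the nearest gene is in their set of genes changed between K1 and K1-ER cells. Eef2k and Eif2c2 were the members marked there, both as up; the header does not define that direction further, and no values of that comparison were analysed here. Neither was called in J2E-KLF3-ER against J2E. In the KLF3 list the members marked by the authors are Eef2, as up, and Eif4ebp1, as down.

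At Eif4ebp1 the lists met over the widest stretch of any member. A KLF3 interval at chr8:28370631-28371981 held 3 summits, 41 bp upstream of the start site (12.1) and 456 and 1040 bp downstream of it (13.1 and 5.23). A KLF1 interval at chr8:28370576-28371497 held 2, 92 bp upstream (23.1) and 533 bp downstream (13.9), and shared 867 bp with the KLF3 interval. A further KLF1 peak lay 6706 bp upstream (15.8) with no KLF3 peak over it. Of the 35 KLF3 peaks of members, 10 overlapped a KLF1 peak (28.6%, against 34.05% of the list), and 9 of 30 KLF1 peaks overlapped a KLF3 peak (30.0%, against 39.3%). Each summit counts as a peak here, and overlap was taken by interval. The 35 KLF3 peaks lie in 31 intervals and the 30 KLF1 peaks in 29. An interval with several summits, as at Eif4ebp1 and Eif1 for KLF3, is therefore counted more than once. Within 1 kb of a start site, 9 of 12 KLF1 peaks overlapped (75%, against 69.7% of the list), and beyond it none of 18 did, against 18.2% of the list. The genes with overlapping peaks were Eif4ebp1, Eif1, Eif2b5, Eif3e, Eif6, Eef2k and Eif2c3. Eef1e1 had a promoter peak of each, not overlapping.

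The promoters of these genes are shown because both factors had a peak within 1 kb of their start site, with that of Eef2, which rose, added. They are RefSeq windows on GRCm38.p6, from 250 bases before the start site to 50 after it. Capitals mark the letters CCNCNCCC on either strand, a loose pattern that fits some CACCC boxes. It also fits other C-rich letters: the Eef1e1 window has 2 matches and no CACCC. Of the 8 genes with both peaks, 5 had a window in the table used, and Eif4ebp1, Eif3e and Eif6 did not. The peaks are on mm9, so their summits are not placed on these letters.
Eef2 (chr10:81176381-81176680, plus strand): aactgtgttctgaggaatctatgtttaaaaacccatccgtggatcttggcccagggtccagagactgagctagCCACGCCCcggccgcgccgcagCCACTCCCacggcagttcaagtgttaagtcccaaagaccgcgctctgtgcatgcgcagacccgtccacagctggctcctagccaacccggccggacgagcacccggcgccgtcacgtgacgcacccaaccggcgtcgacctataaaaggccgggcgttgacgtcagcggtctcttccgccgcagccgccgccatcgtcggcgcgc
Eif1 (chr11:100319699-100319998, plus strand): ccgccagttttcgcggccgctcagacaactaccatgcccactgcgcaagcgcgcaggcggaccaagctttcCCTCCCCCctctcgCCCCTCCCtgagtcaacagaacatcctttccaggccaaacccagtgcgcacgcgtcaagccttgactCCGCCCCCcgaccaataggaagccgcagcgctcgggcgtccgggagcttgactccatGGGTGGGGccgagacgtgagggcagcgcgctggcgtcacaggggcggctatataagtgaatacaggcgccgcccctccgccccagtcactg
Eif2b5 (chr16:20498567-20498866, plus strand): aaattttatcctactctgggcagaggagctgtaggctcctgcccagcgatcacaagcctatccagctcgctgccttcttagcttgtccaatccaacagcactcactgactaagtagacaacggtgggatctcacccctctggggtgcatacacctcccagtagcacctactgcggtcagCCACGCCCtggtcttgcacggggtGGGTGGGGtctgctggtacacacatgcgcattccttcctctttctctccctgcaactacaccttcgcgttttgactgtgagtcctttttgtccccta
Eef2k, the second of 3 windows (chr7:120843350-120843649, plus strand): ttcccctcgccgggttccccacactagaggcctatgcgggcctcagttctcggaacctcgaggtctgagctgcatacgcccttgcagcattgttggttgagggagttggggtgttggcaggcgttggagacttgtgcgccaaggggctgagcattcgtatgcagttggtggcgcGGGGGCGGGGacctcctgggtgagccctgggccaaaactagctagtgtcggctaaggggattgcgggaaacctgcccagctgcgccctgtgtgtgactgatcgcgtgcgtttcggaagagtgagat
Eef1e1 (chr13:38658979-38659278, minus strand): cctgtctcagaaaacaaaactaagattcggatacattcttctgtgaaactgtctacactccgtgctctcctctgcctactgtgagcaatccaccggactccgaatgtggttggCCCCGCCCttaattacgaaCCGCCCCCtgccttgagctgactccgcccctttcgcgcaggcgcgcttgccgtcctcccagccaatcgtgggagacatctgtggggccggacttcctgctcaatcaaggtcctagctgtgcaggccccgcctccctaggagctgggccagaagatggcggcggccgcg
Eif2c3, listed as Ago3 (chr4:126429493-126429792, minus strand): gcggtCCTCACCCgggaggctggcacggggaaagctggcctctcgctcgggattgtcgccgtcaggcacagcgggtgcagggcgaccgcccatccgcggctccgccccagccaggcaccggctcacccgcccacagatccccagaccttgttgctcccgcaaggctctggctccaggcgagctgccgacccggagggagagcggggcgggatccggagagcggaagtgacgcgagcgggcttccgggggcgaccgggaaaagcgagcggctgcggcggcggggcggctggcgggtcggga

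Of the 3 windows of Eef2k the one with matches is printed, so the presence of the pattern in each printed window is in part a matter of choice. Positions are those of the first letter of a match on the printed strand, with the base before the start site as -1. Eif1 has 4 matches, from -179 to -41, and Eef2 has 2, at -177 and -155. In Eef2k the 2 matches overlap, at -76 and -74, and the other 2 windows of that gene have none. A window was found for 47 of the 63 rows. The pattern was in a window of 32 of these 47 genes (68.1%), against 70.4% of tested genes with a window and 51.9% of all genes in the table. Without the Argonaute genes it was 29 of 44 (65.9%). Of the 20 with a KLF3 peak within 1 kb, 19 held it (95%), and of the 27 without such a peak, 13 did (48.1%). Over all tested genes these shares were 86.6% with a KLF3 peak and 63.4% without one. A gene counted if any of its windows held the pattern, and the 20 genes had 33 windows while the 27 had 29. Counted by window, the shares of members were 84.8% with such a peak and 44.8% without one. Over windows of all tested genes they were 80.9% and 60.0%. The windows of members with such a peak are also richer in G and C, at a median of 63.3%, against 58.7% for members without one, and the part of this in the difference was not tested. For the shorter pattern CACCC, which overlaps the first in some places, 27 of 47 members held it (57.4%), against 63.9% of tested genes and 59.8% of all genes in the table. A match is a description of letters and not of a bound site.

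Setting peaks beside RNA, the members with assigned peaks of both factors, at any distance, held the only gene that fell (1 of 10). Those with an assigned KLF3 peak alone held the only one that rose (1 of 18). Of all 1258 tested genes with peaks of both, 61 fell and 6 rose (5.33% called). Of all 1858 with a KLF3 peak alone, 31 fell and 10 rose (2.21% called). With 1 called member in each, these counts are no result about the classes. Peaks of both at a gene need not overlap, and at Eef1e1 they did not. The 10 members with peaks of both had a median log2 fold change of 0.09, per the authors' deposited table, against -0.08 for all tested genes of that class. Apart from Eif4ebp1 they ranged from -0.19 (Eif1) to 0.73 (Eef1e1), with Eif6 at -0.11, Eif3e at 0.05 and Eif2b5 at 0.21. The 18 members with a KLF3 peak alone had a median of 0.31, against 0.02 for tested genes of the class, and 13 of the 18 were above 0. The 7 with a KLF1 peak alone had 0.19, against 0.02. The 22 with neither had 0.10, against 0.05. Centred on chromosome medians, the members' medians were 0.03 (both), 0.25 (KLF3 alone), 0.12 (KLF1 alone) and 0.11 (neither). Those of all tested genes in the same classes were -0.11, -0.01, -0.02 and 0.03. A KLF3 peak at the promoter thus stood beside a lower RNA value at Eif4ebp1, a higher one at Eef2, and values near 0 at Eif5a (-0.06) and Eif3e. These classes were not tested against each other. The KLF1 peaks come from a line other than those whose RNA was compared.

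**Figure D5:**
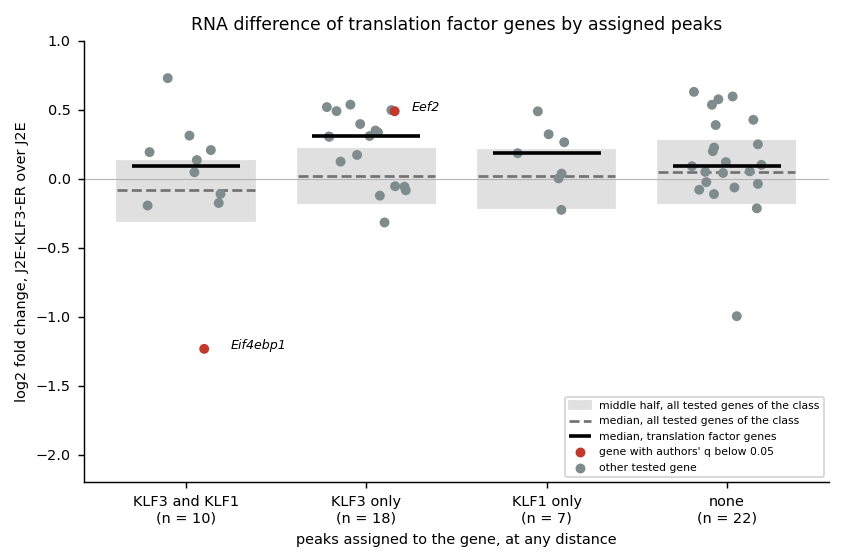
Authors' log2 fold change (J2E-KLF3-ER over J2E) of the 57 tested genes by the peaks assigned to them, with black bars at their medians; grey boxes and dashed lines give the interquartile range and median of all tested genes of the same class, and red points have an authors' q below 0.05. Genes with a KLF3 peak alone have a median of 0.31 (0.25 when centred on chromosome medians), and Eif4ebp1 stands apart at -1.23 among the genes with both.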

How the data were processed

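Expression came from 6 RNA libraries, 3 per group, which the authors deposited as 1 FPKM value per group and gene with their log2 fold change, p-value and q-value; 93 rows without a gene name were left out. The authors' test statistic, a score, was not used. The design had allowed for values per library, but the deposited table holds pooled values only, so no test was run here and the authors' q-value was taken as the call. Adjusting their p-values by Benjamini-Hochberg over the 9619 genes they tested gives the same q-values. Depth per library is unknown. Per the submitters' processing notes, MACS 1.4.2, MACS2, TopHat2 2.0.10 and build mm9 were used; which step used which is not given in the sources used here, nor whether counting used strand.

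Binding came from deposited peak lists of 1 KLF3 and 1 KLF1 library, each pooled from 3 replicates. Per the file headers they give an enrichment ratio, a rank, the nearest start site and its distance. The fold enrichment is the authors' own value and was used only within a list. The scripts turned distances into strand-aware positions, and 13 gene names stored as dates were read back. Peaks were called shared when they overlapped by at least 1 bp. No per-sample column was left unused (0).

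All tested members could be named; those with a q below 0.05, the 5 largest and 5 smallest log2 fold changes, the highest FPKM of each role and those with peaks of both factors are given in full, as are other translation genes called or among the 2 with the largest change. Promoters printed are those with a peak of both factors, and that of Eef2, added after its values were seen. Promoter windows are RefSeq's on GRCm38.p6, and no coordinate was converted. The lymphoid list of the cell type markers is not reported here. The members, gene lists and groupings were chosen with earlier results of these data known. Thresholds on q, start-site distance, enrichment and overlap, chromosome centring and the pseudocount were varied. Python 3.11.15, pandas 2.3.3, NumPy 2.4.6 and matplotlib 3.10.9 were used, and the code was tested on simulated data.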

Additional observations from a re-analysis of the deposited data

How the results depend on the processing

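The calls depend on the threshold: 2 genes at an authors' q below 0.05, 1 below 0.01 (Eif4ebp1, against 1.51% of all tested genes), 7 below 0.10 (12.3%, against 4.56%), and 17 at an unadjusted p below 0.05, the last added after seeing the data. Genes with a KLF3 peak numbered 28, and 18 when only peaks above the list's median enrichment counted. Genes with a KLF1 peak numbered 17, with 10 within 1 kb of a start site and 11 above the median enrichment. Genes with both numbered 10, and 5 above the median enrichment. Fewer peaks were counted in each of these by construction. Centring on the chromosome median turned the sign of 7 tested members, none of them called: Eif2c2 to -0.10, Eif3e to -0.094, Eif4a3 to -0.049, Eif1ad to -0.0019, Eif4e to 0.042, Eif2c1 to 0.011 and Eif1b to 0.0020. Of the 84 values computed under alternatives for the 28 genes given in full, 81 kept their sign. Most of that was fixed in advance, because adding a pseudocount cannot turn a sign. Only the centred value of each of the 28 genes could turn, and 3 of these did. The remaining 11 alternatives moved no count by over 1.5 times and no median to the other side of 0. No paired analysis was possible because the deposited RNA values are pooled per group. For the same reason no library was left out in turn, the J2E library given vehicle included. Library depth and the error of a fold change are unknown, and a gene that missed the threshold is not shown to be equal in both lines.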

Other observations

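Some small RNA genes that share a locus with a translation factor gene had high and uneven values, with no call among those tested. Within the Eif4a2 locus, Snord2 had 943 FPKM in J2E-KLF3-ER and 91.1 FPKM in J2E (log2 fold change 3.37, q = 0.821), and Snora81 had 641 FPKM in J2E-KLF3-ER and 363 FPKM in J2E (0.82, q = 0.821), in the authors' deposited table. Within the Eif5 locus, Snora28 had 385 FPKM in J2E-KLF3-ER and 585 FPKM in J2E (q = 0.938), and within the Eef1b2 locus Snora41 had 172 FPKM in J2E-KLF3-ER and 153 FPKM in J2E (q = 0.981), in the authors' deposited table. Snord37, in the Eef2 locus, is listed at 0 in J2E-KLF3-ER and at 410 FPKM in J2E in the authors' deposited table and was not tested. Mir1956, in the Eif4e locus, was at 127 FPKM in J2E-KLF3-ER and 195 FPKM in J2E in the authors' deposited table and was not tested. Snora19, in the Eif3a locus, and Snord66, in the Eif4g1 locus, are listed at 0 in both lines. All these rows have the start and end of their host gene in the table.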
